A study of Mus musculus with 6 samples.

Results

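Stem cell factor and its receptor were examined as a ligand and receptor pair, 2 genes chosen by name from the 54532 genes of the deposited table. Kitl encodes stem cell factor and Kit encodes the receptor tyrosine kinase that binds it. Both genes passed the filter on low counts and were measured in every library. The study sequenced RNA from whole ear skin of mice aged 3 months, in 6 libraries. The 3 control libraries (Ufl1f/+ or Ufl1f/f) came from mice with 1 or both alleles of Ufl1 floxed and no Cre, and the 3 cKO libraries from mice of genotype Ufl1f/f KRT14Cre/+, in which Cre is driven by the keratin 14 promoter of basal keratinocytes and their descendants. Ufl1 is the ligase of the UFM1 modification system. No control carried Cre, so Cre itself and the loss of Ufl1 cannot be told apart, and which libraries of the control group were heterozygous is not labelled. Whether the libraries are from separate animals is not labelled, and the p-values therefore describe only how these libraries vary.

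Stem cell factor is made as a membrane protein by keratinocytes, fibroblasts and endothelial cells, and part of it is released by proteases. Binding pairs 2 Kit molecules, which phosphorylate each other and switch on the PI3 kinase, Ras and Src family pathways. In skin Kit is known from melanocytes, whose migration, survival and pigment production need it, and from mast cells, which depend on it for growth. Both cell types lie outside the keratin 14 lineage, whereas part of the Kitl transcript comes from cells within it. A whole-skin count adds the transcripts of all these cells, and fewer cells of a type and less RNA per cell cannot be told apart in it.

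Kit (ENSMUSG00000005672) lies on chromosome 5 from 75574916 to 75656722 and Kitl (ENSMUSG00000019966) on chromosome 10 from 100015630 to 100100416, both on the plus strand of mm10. No other gene of the table overlapped either one, so reads of an antisense or nested gene did not enter their counts through a shared position. The exons of all annotated transcripts together span 8911 bases for Kit and 5911 bases for Kitl in GENCODE M21, which equal the gene lengths in the deposited table. The counts therefore sum the annotated forms of each gene, 8 transcripts of Kit and 6 of Kitl. The best known difference between Kitl forms is exon 6, a coding exon of 84 bases (chr10:100080857-100080940, plus strand) that holds the site where proteases release the soluble factor. Transcript Kitl-202 has it and Kitl-201 lacks it. The 2 protein-coding transcripts of Kit differ by 12 bases at the end of exon 9 (chr5:75639147-75639158), just outside the membrane-spanning part. Both stretches are shown because the forms they separate share 1 count here, so a shift between membrane-bound and soluble factor was not measured. The capitals mark the alternative bases, and the Kit line carries 15 bases of spliced transcript on each side.
Kitl exon 6: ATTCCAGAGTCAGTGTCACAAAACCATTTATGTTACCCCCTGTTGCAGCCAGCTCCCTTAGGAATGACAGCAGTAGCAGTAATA
Kit exon 9 end: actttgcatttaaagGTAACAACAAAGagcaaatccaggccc

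Kit and Kitl were also set beside the pigment genes at their promoters, because the counts below differ between them. The windows are the 250 bases before the RefSeq start (GRCm38.p6), with capitals marking every match, on either strand, to 1 of 5 motifs. The gene coordinates given above begin before that start, at 75574916 for Kit and 100015630 for Kitl. Both windows, which end at 75574986 and 100015820, therefore include bases of the annotated gene. Positions below are counted from the RefSeq start. The first was CATGTG, the core of the element through which MITF acts on pigment genes, and the second was its relative CACGTG. The others were the TATA box as TATAAA, the site of Sp1-type factors as GGGCGG, and a form of the GATA site as AGATAA.
Kit promoter, chr5:75574737-75574986: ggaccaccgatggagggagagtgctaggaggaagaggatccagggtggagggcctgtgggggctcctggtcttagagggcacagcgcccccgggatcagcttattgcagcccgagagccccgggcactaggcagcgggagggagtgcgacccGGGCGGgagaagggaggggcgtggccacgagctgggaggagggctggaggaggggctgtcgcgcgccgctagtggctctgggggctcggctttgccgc
Kitl promoter, chr10:100015571-100015820: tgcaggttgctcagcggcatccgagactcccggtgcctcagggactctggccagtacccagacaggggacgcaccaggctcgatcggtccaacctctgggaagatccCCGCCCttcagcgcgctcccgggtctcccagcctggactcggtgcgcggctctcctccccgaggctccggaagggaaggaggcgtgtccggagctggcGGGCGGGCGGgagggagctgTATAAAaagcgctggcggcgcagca

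The Kit window held GGGCGG once, 98 to 93 bases before the start, and none of the other motifs. The Kitl window held GGGCGG at 3 places, of which 2 overlapped in their bases, and TATAAA 25 to 20 bases before the start. Both windows were rich in G and C, with 70.8% in Kit and 69.2% in Kitl, against a median of 52% over 27025 mouse promoters of the same length. Of these promoters, 32.9% held GGGCGG, 13.0% held TATAAA, 12.2% held CATGTG, 10.3% held AGATAA and 6.05% held CACGTG. The promoter table held 6 of the 10 pigment genes listed, Tyr, Tyrp1, Dct, Oca2, Trpm1 and Slc24a5, and CATGTG was present in 6 of these 6 windows and AGATAA in 4 of 6, neither of which Kit or Kitl held. TATAAA and GGGCGG were each present in 1 of the 6 and CACGTG in 0. Tyr, Tyrp1 and Dct are shown around a match, each as read along its gene with CATGTG in capitals.
Tyr, chr7:87493516-87493545, minus strand: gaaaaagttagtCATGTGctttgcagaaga
Tyrp1, chr4:80834155-80834184, plus strand: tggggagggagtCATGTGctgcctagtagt
Dct, chr14:118052379-118052408, minus strand: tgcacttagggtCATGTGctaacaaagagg

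A match is a description of letters only, and enhancers of Kit and Kitl outside the windows were not examined.

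The libraries held between 17256339 and 20776539 counts. Levels are given in CPM, the count scaled to a common library size with TMM factors, and values within a group stand in the order of the replicate numbers. Ufl1, the targeted gene, was at 46.0 to 57.8 CPM in the controls and 34.8 to 38.7 CPM in the cKO. Every cKO library thus lay below every control, as was found for 4.8% of all genes tested. The log2 fold change of Ufl1 was -0.47 (SE 0.14). The gene was called by neither edgeR (adjusted p = 0.778) nor DESeq2 (adjusted p = 0.361). Its count includes cells that never carried Cre. Control 2 stood apart in cell type markers: it had the lowest summed level of fibroblast markers (9948 CPM, against 16135 to 26138 in the other libraries) and the highest of basal keratinocyte markers (11570 CPM, against 3349 to 7201). Control 1 was at the opposite end of both, with the highest fibroblast sum (26138 CPM) and the lowest basal keratinocyte sum (3349 CPM).

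Kit, the receptor, had similar levels in 5 of the 6 libraries and a low one in control 2. It was counted 767, 387 and 1089 times in controls 1 to 3 and 788, 957 and 1083 times in cKO 1 to 3. These counts corresponded to 45.7, 19.9 and 51.4 CPM among controls against 43.8, 53.0 and 56.6 CPM among cKO libraries. The groups overlapped, since cKO 1 lay below controls 1 and 3, while cKO 2 and cKO 3 lay above every control. The control mean was 39.0 ± 16.8 CPM (SD, n = 3) and the cKO mean 51.2 ± 6.60 CPM (SD, n = 3). On the log2 scale the fold change was 0.39 (SE 0.32; 95% interval -0.34 to 1.12), or 1.31-fold with an interval of 0.791-fold to 2.18-fold. The edgeR quasi-likelihood test gave an adjusted p of 0.997, and the two-sided exact permutation test gave p = 0.4, where 3 libraries against 3 cannot go below 0.1. Leaving out control 2 gave 0.08 (SE 0.15), and leaving out control 3 gave 0.64 (SE 0.35). No change of Kit was detected, and the interval holds both a modest decrease and an increase above 2-fold.

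Kitl, the ligand, had nearly equal group means. It was counted 1475, 870 and 1132 times in controls 1 to 3 and 1101, 1070 and 1328 times in cKO 1 to 3. These were 87.8, 44.8 and 53.4 CPM among controls against 61.3, 59.3 and 69.4 CPM among cKO libraries. The controls held both the highest and the lowest library, and the cKO libraries lay between them. The control mean was 62.0 ± 22.8 CPM (SD, n = 3) and the cKO mean 63.3 ± 5.38 CPM (SD, n = 3). On the log2 scale the fold change was 0.03 (SE 0.24; 95% interval -0.52 to 0.59), where the lower bound is 0.696-fold. The adjusted p was 0.997 in edgeR and the exact permutation test gave p = 0.8. The sign depended on single libraries, with 0.36 (SE 0.14; adjusted p = 0.450 in edgeR) without control 1 and -0.16 (SE 0.21) without control 2.

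Of the 2 genes, 0 were called by edgeR at an adjusted p under 0.05, where 0.0173% of the 17318 genes tested were called, and 0 by DESeq2, where 0.526% were. At an unadjusted p under 0.05 neither gene passed in either tool with all libraries included. An absolute log2 fold change larger than that of Kit was found in 18.6% of all genes tested, and one larger than that of Kitl in 88.6%. The authors' deposited table gives log2 fold changes of 0.39 for Kit and 0.03 for Kitl, each with an adjusted p of 0.9999.

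**Figure D1:**
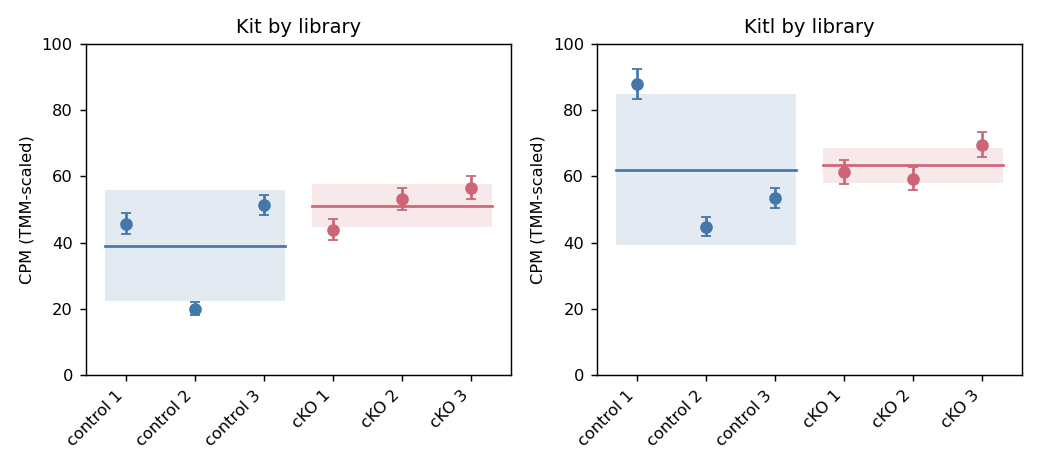
Level of Kit (left) and Kitl (right) in each library, in TMM-scaled CPM, with points for libraries, thin bars for the exact 95% Poisson interval of the count, lines for group means and bands for 1 SD (n = 3 each). Kit was lowest in control 2 at 19.9 CPM, Kitl was highest in control 1 at 87.8 CPM, and the groups overlapped for both genes.

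The spread was wider among controls than among cKO libraries for both genes. The coefficient of variation of Kit was 43.0% in the controls and 12.9% in the cKO, and that of Kitl was 36.7% and 8.49%. Counting error alone would give 3.66% and 3.26% for Kit and 2.94% and 2.93% for Kitl, well below the spread observed. The difference in spread between the groups was not tested. The intervals drawn for single libraries cover counting error only.

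**Figure D2:**
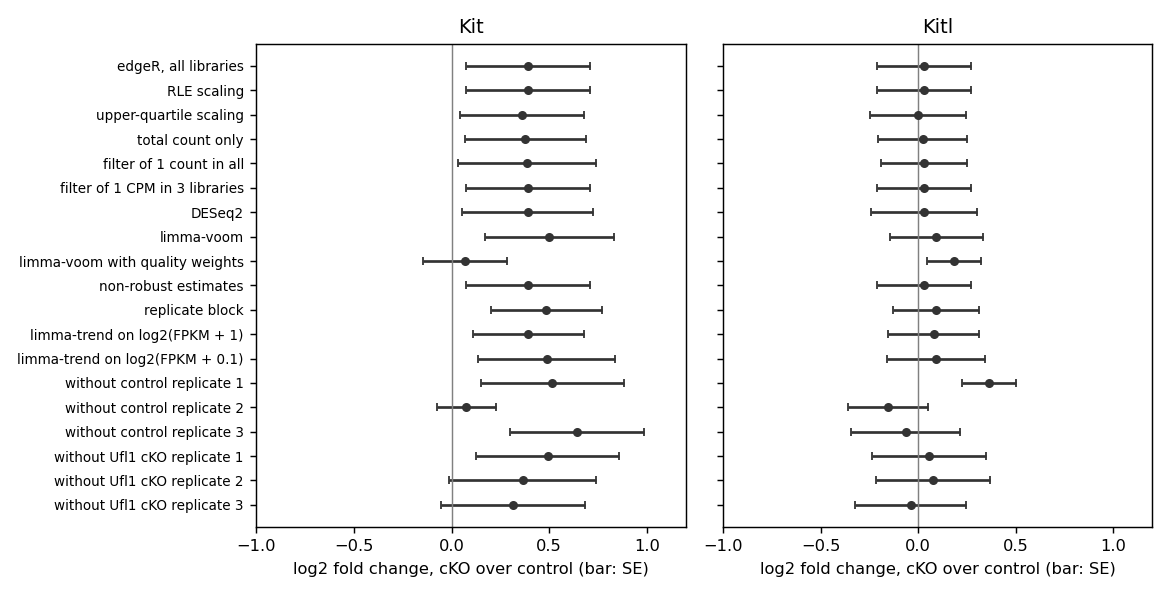
Log2 fold change of Kit (left) and Kitl (right), cKO over control, with all libraries in edgeR at the top and under 18 other settings below, with bars for 1 SE and a vertical line at 0. Kit was between 0.07 and 0.64 and stayed positive, while Kitl was between -0.16 and 0.36 and changed sign.

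Receptor and ligand were compared with each other per length of transcript. In FPKM, as deposited, Kit was at 5.11, 2.20 and 5.74 among controls against 4.88, 5.92 and 6.35 among cKO libraries. Kitl was at 7.46 to 14.8 FPKM in the controls, with a mean of 10.4 ± 3.88 (SD, n = 3), and at 9.98 to 11.7 FPKM in the cKO, with a mean of 10.7 ± 0.941 (SD, n = 3). The ligand was above the receptor in 6 of 6 libraries. By mean FPKM Kitl ranked 4814th and Kit 8095th among 14872 protein-coding genes tested. The ratio of Kit to Kitl per length was 0.345, 0.295 and 0.638 among controls against 0.475, 0.593 and 0.541 among cKO libraries, so control 3 had the highest ratio and the other controls the lowest. The mean log2 ratio differed by 0.41 between the groups (cKO minus control), with p = 0.4 in the two-sided exact permutation test, and by 0.19 without control 2 and 0.74 without control 3.

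Melanocytes carry Kit, and their pigment genes were compared with it in the same libraries. The log2 fold change was above 0 for 10 of 10 pigment genes and had a median of 2.04, against a median of -0.01 over all genes tested, of which 47.8% were positive. They were listed with their rise in these libraries known, so their direction is not independent evidence. One, Tyrp1, was called higher by edgeR (0.0115% of all genes were) and 9 were called higher by DESeq2 (0.387%), and the groups did not overlap for 10 of 10 (5.73% of all genes in that direction). Gpr143 was near the floor in the controls, at 0.051 to 0.094 CPM against 0.610 to 0.889 CPM in the cKO. It passed the filter on low counts only through the cKO group, so the filter set its direction and its gap. Slc45a2 and Oca2 were also low in the controls, at 0.357 to 0.849 and 0.257 to 1.37 CPM. Tyr, tyrosinase, which starts melanin synthesis, was at 2.50, 1.75 and 2.59 CPM among controls against 10.4, 13.7 and 17.3 CPM among cKO libraries, a log2 fold change of 2.59 (SE 0.28). Dct, the dopachrome tautomerase, was at 13.6, 12.7 and 21.6 CPM and at 52.8, 62.6 and 86.4 CPM. Kit in the same cKO libraries was at 43.8 to 56.6 CPM, beside 45.7, 19.9 and 51.4 CPM in controls 1 to 3.

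The level of Kit relative to the pigment genes is given as a description. Log2 CPM of Kit minus the mean log2 CPM of the 10 pigment genes was 4.30, 3.18 and 4.08 among controls against 2.35, 2.40 and 2.17 among cKO libraries. The difference of the means was -1.55. The pigment genes were listed with their rise known and Kit alone did not pass its test, so the direction and the gap between the groups were set by the choice of list, and the value is a description with no test.

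**Figure D3:**
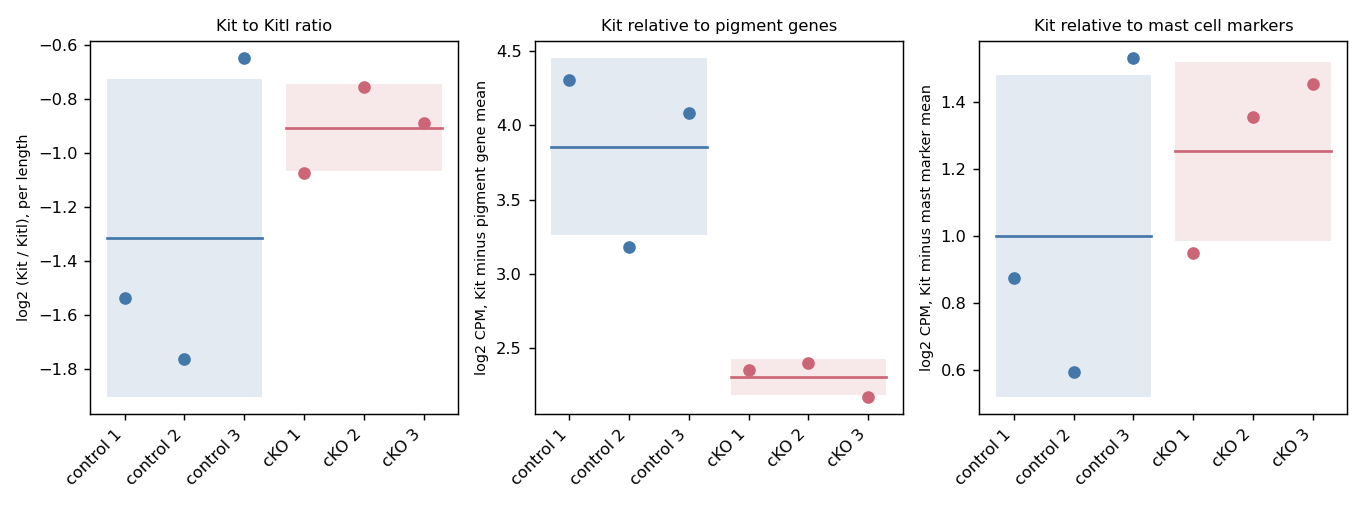
The 3 log2 quantities compared in each library, Kit over Kitl per length (left), Kit minus the mean of 10 pigment genes (middle) and Kit minus the mean of 12 mast cell markers (right), with points for libraries, lines for group means and bands for 1 SD (n = 3 each) and vertical axes that do not start at 0. The groups overlapped in the left and right panels, and the gap in the middle panel, between 2.40 and 3.18, was set by listing genes known to be higher in cKO.

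Regulators and receptors of the melanocyte lineage other than Kit ranged from -0.32 to 2.40 in log2 fold change. Of 6 genes, 4 were positive, with a median of 0.18, which was 0.07 without control 2 or without control 3 and 0.50 without control 1. The groups did not overlap for Mc1r and Pax3, both higher in cKO (5.73% of all genes were). Mc1r, the melanocortin receptor, was at 0.596, 1.03 and 1.09 CPM among controls against 3.39, 4.49 and 6.64 CPM among cKO libraries, a log2 fold change of 2.40 (SE 0.39; adjusted p = 0.239 in edgeR and 2.7e-05 in DESeq2). Pax3, a transcription factor of the lineage, was at 0.73 (SE 0.35). Sox10 was at -0.32 (SE 0.26), with 22.0, 44.4 and 25.3 CPM among controls against 24.7, 22.1 and 26.8 CPM among cKO libraries. The neuregulin receptor gene Erbb3 was at -0.15 (SE 0.21) and was also highest in control 2, at 115 CPM. Sox10 and Erbb3 are also transcribed by Schwann cells. Among the 6 genes 0 were called by edgeR (0.0173% of all genes were) and 1, Mc1r, by DESeq2 (0.526%). At an unadjusted p under 0.05 in edgeR 1 was higher, which 3.38% of all genes were.

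Mast cells also carry Kit, and their markers were compared next. All 12 markers, Kit not among them, were detected, and 0 were at 0 in all libraries. In 10 of 12 the log2 fold change was above 0, and the median was 0.15. Without control 2 these became 5 of 12 and -0.07. With all libraries the negative members were Hpgds at -0.07 (SE 0.19) and Mrgprb2 at -0.02 (SE 0.26). Fcer1a was at 0.01 (SE 0.69), Slc18a2 at 0.06 (SE 0.23), Ms4a2 at 0.07 (SE 0.35), Tpsab1 at 0.11 (SE 0.33) and Mrgprb1 at 0.30 (SE 0.44). By edgeR 0 of 12 were called (0.0173% of all genes were) and by DESeq2 0 of 12 (0.526%). Hdc, the histamine-forming enzyme, was the 1 of 12 higher at an unadjusted p under 0.05 in edgeR (3.38% of all genes were), at 11.9, 6.18 and 9.58 CPM among controls against 20.9, 15.9 and 11.5 CPM among cKO libraries (log2 fold change 0.80, SE 0.30). Tpsb2, a tryptase, was the 1 of 12 markers whose groups did not overlap (5.73% of all genes, higher in cKO), at 39.5 to 43.9 CPM and 48.7 to 52.8 CPM.

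The proteases of connective tissue mast cells varied more among controls than among cKO libraries. Cpa3, carboxypeptidase A, was at 162, 42.5 and 87.6 CPM among controls against 110, 103 and 126 CPM among cKO libraries. The chymase Mcpt4 was at 190, 119 and 133 CPM among controls against 173, 197 and 200 CPM among cKO libraries, with a log2 fold change of 0.37 (SE 0.19), and the chymase Cma1 was at 0.19 (SE 0.19). Summed over the 12 markers the level was 649, 337 and 431 CPM among controls against 541, 563 and 594 CPM among cKO libraries. Control 2, lowest in Kit and Kitl, was lowest in this sum, and control 1, highest in Kitl, was highest. Relative to the mean of the mast cell markers, log2 CPM of Kit was 0.88, 0.59 and 1.53 among controls against 0.95, 1.35 and 1.46 among cKO libraries, a difference of 0.25 (p = 0.6 in the exact permutation test) that was 0.05 without control 2 and 0.52 without control 3. How much of the Kit count came from mast cells was not tested.

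The relation of both genes to the scores of 12 lists, 6 of cell types and 6 of signalling, regulation and related genes, was computed over the 6 libraries, the score being the mean over a list of log2 CPM centred on each gene's mean. Together with the relation between Kit and Kitl these made 25 relations. The pigment and lineage lists were left out because their scores separate the groups. Kit and the mast cell score had a Pearson r of 0.76 (exact permutation p = 0.146, adjusted 0.312) and a Spearman rho of 0.09 (exact permutation p = 0.919). Without controls 1 and 2, the libraries with the most extreme score, r was -0.46, so the relation rested on these libraries. For Kitl the r was 0.89 (exact permutation p = 0.0194, adjusted 0.127) and rho 0.83 (exact permutation p = 0.0583), and r was 0.60 without controls 1 and 2.

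Fibroblast markers gave a similar picture. Kitl had an r of 0.86 with their score (exact permutation p = 0.0306, adjusted 0.127) and a rho of 0.83 (exact permutation p = 0.0583), which became 0.45 without controls 1 and 2. Kit had an r of 0.82 (exact permutation p = 0.139, adjusted 0.312) and a rho of 0.09 (exact permutation p = 0.919), and r was -0.34 without controls 1 and 2. Basal keratinocyte markers went the other way. Their score had an r of -0.78 with Kitl (exact permutation p = 0.0819, adjusted 0.273) and a rho of -0.60 (exact permutation p = 0.242). Without controls 1 and 2 this r was 0.40. With Kit the r was -0.79 (exact permutation p = 0.15, adjusted 0.312) and the rho -0.14 (exact permutation p = 0.803), and r was 0.57 without these controls. Between Kit and Kitl themselves r was 0.60 (exact permutation p = 0.278, adjusted 0.497) and rho 0.37 (exact permutation p = 0.497), and r was 0.31 without controls 1 and 2. The smallest p were those of Kit with the inhibitors of its signal and of Kitl with the related ligands. Kit and the inhibitors had an r of 0.91 (exact permutation p = 0.00556, adjusted 0.122) and a rho of 0.94 (exact permutation p = 0.0167), and r was 0.66 without control 2 and cKO 3. Kitl and the related ligands had an r of 0.95 (exact permutation p = 0.00972, adjusted 0.122) and a rho of 0.94 (exact permutation p = 0.0167), and r was 0.86 without controls 1 and 2. The highest r was that of Kit with the related receptors, 0.98 (exact permutation p = 0.0222, adjusted 0.127), with a rho of 0.60 (exact permutation p = 0.242) and an r of 0.72 without controls 2 and 3. None of the 25 passed after adjustment. Within a genotype there are 3 libraries, too few for a value.

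**Figure D4:**
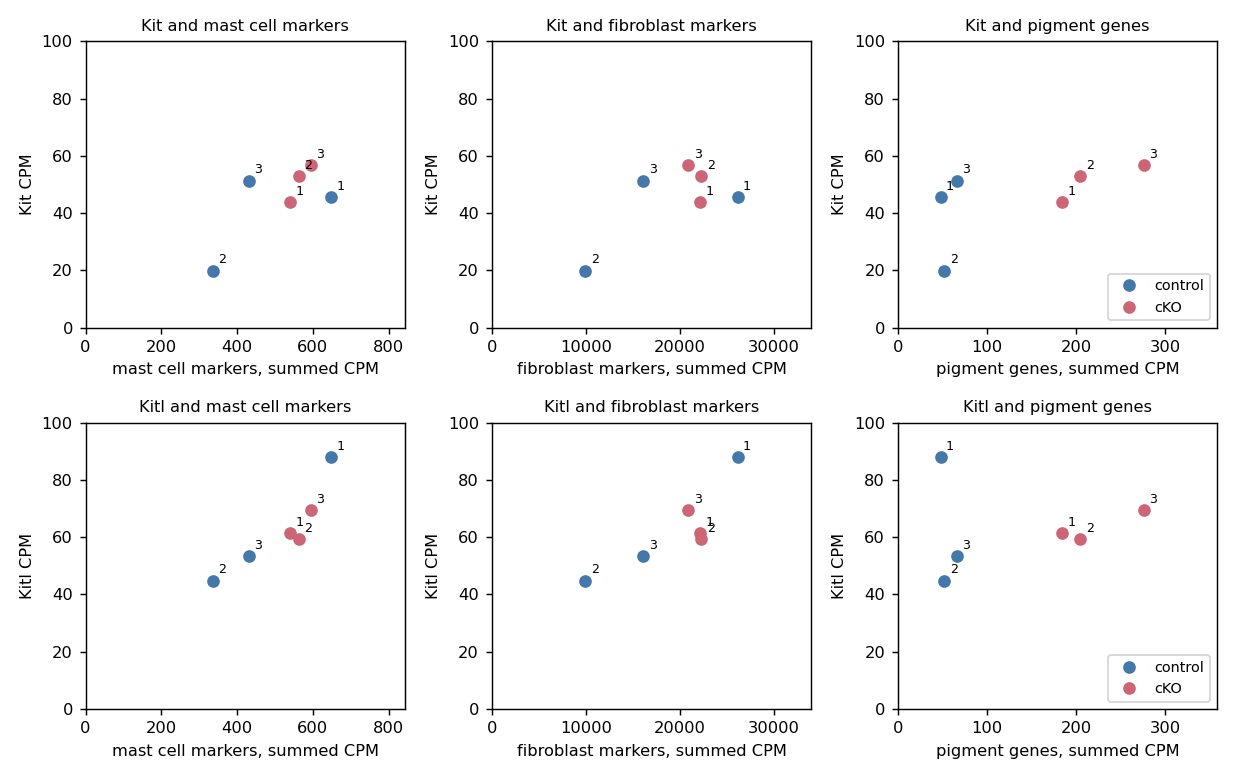
Level of Kit (top) and Kitl (bottom) in CPM against the summed CPM of mast cell markers, fibroblast markers and pigment genes, with 1 point per library numbered by replicate, blue for control and red for cKO. Control 2 was low in Kit, Kitl, mast cell and fibroblast sums, Kitl was highest where the mast cell sum was highest (649 CPM), and pigment sums separated the groups without a matching separation of Kit.

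Cell types that make stem cell factor were compared through their markers. The 7 fibroblast markers had a median log2 fold change of 0.29, with 5 positive, and 0.01 without control 2. Col1a1, a collagen chain, was at 4877, 2390 and 3429 CPM among controls against 5531, 5411 and 5445 CPM among cKO libraries (log2 fold change 0.62, SE 0.29; adjusted p = 0.949 in edgeR). The 7 endothelial markers had a median of -0.05 with 3 positive, and Egfl7 was at -0.48 (SE 0.23). The endothelial median was 0.21 without control 1 and 0.04 without cKO 3, each with 5 positive, 0.02 with 4 positive without control 3, and -0.14 with 2 positive without control 2. The 7 basal keratinocyte markers had a median of -0.20 with 1 positive, but 5 positive with a median of 0.15 without control 2 and 0 positive without control 1. Krt15, a basal keratin, was at 445, 1373 and 729 CPM among controls against 213, 247 and 373 CPM among cKO libraries (log2 fold change -1.61, SE 0.41). It was called lower by DESeq2 (adjusted p = 0.0103, where 0.526% of all genes were called in either direction) and not by edgeR (adjusted p = 0.650). It was the 1 basal marker lower at an unadjusted p under 0.05 in edgeR (1.95% of all genes) and the 1 whose groups did not overlap (4.8% of all genes, lower in cKO).

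The 7 suprabasal markers were all above 0 with every library included, with a median of 0.23. Without cKO 1, 5 were above 0 and the median was 0.11. Dsc1, a desmosomal cadherin, was at 197, 167 and 216 CPM among controls against 395, 236 and 221 CPM among cKO libraries. Its log2 fold change was 0.55 (SE 0.24), the 1 of 7 higher at an unadjusted p under 0.05 in edgeR (3.38% of all genes were). It was also the 1 of 7 whose groups did not overlap (5.73% of all genes, higher in cKO). Hair follicle markers, 9 of the 10 listed being measured, had a median of 0.29 and differed widely within groups, from a summed 24.5 to 171 CPM in the controls and 54.5 to 235 CPM in the cKO. Without cKO 1 the median was -0.49, with 0 of 9 positive, and without control 3 it was -0.21, with 3 positive. Control 3 had the lowest hair sum and the highest Kit level among controls, and over all libraries Kit had an r of -0.26 with the hair score (exact permutation p = 0.596, adjusted 0.648; rho -0.60, exact permutation p = 0.242; r -0.25 without control 3 and cKO 1).

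Downstream of Kit, the 27 transducers of its signal were centred on 0. Of these 13 were positive and 14 negative, with a median log2 fold change of -0.01 and a range from -0.18 to 0.49, and 20 were positive without control 3. By edgeR 0 of 27 were called (0.0173% of all genes were) and by DESeq2 0 of 27 (0.526%). At an unadjusted p under 0.05 in edgeR 0 of 27 passed, where 3.38% of all genes were higher and 1.95% lower. The members with the smallest p were Pik3cd, the leukocyte PI3 kinase subunit, at 0.49 (SE 0.22), the Src family kinase Lyn at 0.45 (SE 0.26), the phospholipase Plcg2 at 0.30 (SE 0.19) and Sos1, which loads Ras with GTP, at -0.18 (SE 0.13). Sos1 was at 41.2 to 49.9 CPM in the controls and 36.7 to 40.8 CPM in the cKO, the 1 of 27 transducers whose groups did not overlap (4.8% of all genes, lower in cKO). Pik3cd was at 19.8, 19.4 and 22.7 CPM among controls against 31.7, 20.2 and 35.2 CPM among cKO libraries, so that cKO 2 lay among the controls.

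Inhibitors of the signal gave a similar result, with 7 of 11 positive and a median of 0.08 (-0.06 without control 2, with 5 positive). Ptpn6, the phosphatase SHP-1, was at 0.39 (SE 0.18), Socs1 at 0.47 (SE 0.43), the ubiquitin ligase Cbl at 0.17 (SE 0.13) and Socs6 at -0.14 (SE 0.14). By edgeR 0 of 11 were called (0.0173% of all genes were) and by DESeq2 0 of 11 (0.526%). At an unadjusted p under 0.05 in edgeR 0 of 11 passed, where 3.38% of all genes were higher and 1.95% lower. Socs1 was at 23.2 CPM in cKO 3 and between 7.03 and 13.2 CPM in the other libraries.

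Proteases that release stem cell factor or Kit from the membrane, with their partners, had 4 of 6 positive and a median of 0.07. Adam17, a sheddase of both proteins, was at 80.2, 73.0 and 69.9 CPM among controls against 90.2, 73.9 and 88.8 CPM among cKO libraries (log2 fold change 0.18, SE 0.13). Mmp9, which releases stem cell factor in bone marrow and is made by neutrophils and other cells, was at 7.74, 2.93 and 5.05 CPM among controls against 52.3, 8.37 and 6.43 CPM among cKO libraries, so that 1 library carried its log2 fold change of 2.10 (SE 0.80; adjusted p = 0.866 in edgeR). It was the 1 of 6 higher at an unadjusted p under 0.05 in edgeR (3.38% of all genes were). By edgeR 0 of 6 were called (0.0173% of all genes) and by DESeq2 0 of 6 (0.526%).

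Transcription factors that act on the Kit gene had 4 of 6 positive and a median of 0.09, and 1 positive with a median of -0.07 without control 2. Mitf, which acts on Kit in melanocytes and mast cells and is also in the lineage list, was at 31.1, 18.2 and 21.5 CPM among controls against 22.8, 27.7 and 26.6 CPM among cKO libraries (log2 fold change 0.12, SE 0.21). Tal1 was at 0.13 (SE 0.23), Myb at 0.38 (SE 0.39) and Ldb1, the LIM domain cofactor, at -0.52 (SE 0.28). Ldb1 was highest in control 2 at 254 CPM, the library lowest in Kit. By edgeR 0 of 6 were called (0.0173% of all genes were) and by DESeq2 0 of 6 (0.526%). At an unadjusted p under 0.05 in edgeR 0 of 6 passed, where 3.38% of all genes were higher and 1.95% lower.

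The closest relatives of Kit among receptors and of Kitl among ligands were compared last. Pdgfra, Pdgfrb, Csf1r and Flt3 had log2 fold changes of 0.15 (SE 0.37), 0.22 (SE 0.20), 0.06 (SE 0.27) and 0.41 (SE 0.24), and 2 of the 4 were positive without control 2. Like Kit, Pdgfra, Pdgfrb and Csf1r were lowest in control 2, at 64.9, 93.6 and 112 CPM. The summed level of the 4 receptors was 277 CPM there and between 494 and 580 CPM in the other libraries. Of the 7 ligands 4 were positive, with a median of 0.01. Leaving out 1 library gave medians from -0.16 with 3 positive (without cKO 3) to 0.001 with 4 positive (without cKO 1). Csf1, the macrophage growth factor, was at 0.22 (SE 0.19), Pdgfd at 0.34 (SE 0.44), Pdgfa at -0.15 (SE 0.14) and Il34, the second ligand of the Csf1 receptor, at -0.15 (SE 0.14). In both lists 0 were called by edgeR (0.0173% of all genes were) or DESeq2 (0.526%). At an unadjusted p under 0.05 in edgeR 0 passed in either list, where 3.38% of all genes were higher and 1.95% lower.

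**Figure D5:**
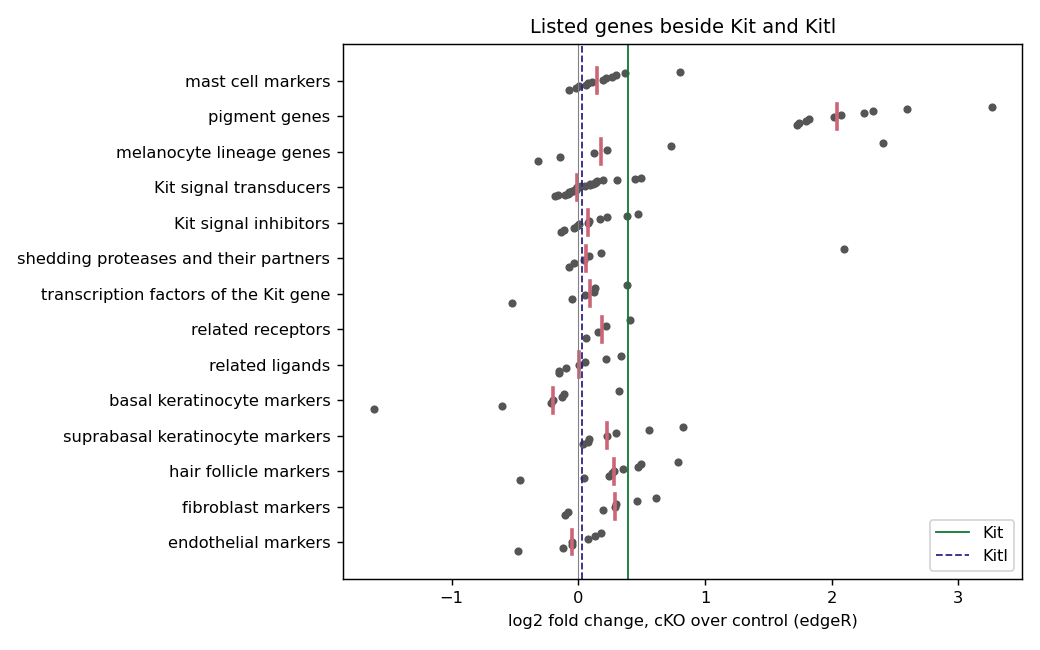
Log2 fold change (cKO over control, edgeR) of each listed gene, 1 point per gene and 1 row per list, with red bars for list medians and vertical lines for Kit (solid) and Kitl (dashed). The pigment genes lie between 1.73 and 3.26, to the right of Kit at 0.39, while the medians of the other 13 lists lie between -0.20 and 0.29. The value of 3.26 is that of Gpr143, which was near the floor in the controls.

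The genes most like Kit and Kitl over the libraries were taken from 12226 protein-coding genes with a mean of at least 5 CPM, by the Pearson r of log2 CPM over all 6 libraries. For Kit they were Plekhm3 (r = 0.995), Rnf125 (0.991), Sel1l (0.991), Wdr7 (0.989) and Fam198a (0.989). All 5 were lowest in control 2, with Plekhm3 at 21.9 CPM there and at 30.7 to 33.0 CPM in the others. For Kitl they were Zfp638 (r = 0.997), 4930503L19Rik (0.995), Wrn (0.994), Fbxo8 (0.993) and Ddx3x (0.992), each highest in control 1 and lowest in control 2. These are the extremes of many genes over few libraries, given as a description.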

How the data were processed

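RNA from 6 ear skin libraries, 3 control and 3 Ufl1 cKO, was sequenced by the authors from NEBNext Ultra libraries, per the labels' protocols. The submitters' processing notes list HISAT2, HTSeq and mm10; versions and strand setting are absent from them. Raw counts of each gene, as whole numbers, are deposited, per the file headers. FPKM values, normalized mean counts per group (a signal value), log2 fold changes and p-values of the authors' own comparison were deposited beside them, per the file headers, and the sources used here do not name the test behind these.

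Counts were scaled by TMM and compared in edgeR 4.0.16 under R 4.3.3 (glmQLFit with robust estimates, then glmQLFTest, no covariates) over the 17318 genes that passed filterByExpr, with Benjamini-Hochberg adjustment and a threshold of 0.05. Each edgeR SE is the size of the estimate over the square root of its F. Log2 CPM used a prior count of 2. DESeq2 1.42.0, limma 3.58.1, other scalings and filters, FPKM with pseudocounts of 1 and 0.1, the replicate block and leaving out each library were alternatives. The scripts were tested on simulated counts.

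The 2 members, the 14 gene lists and the tests were chosen with earlier results of these data known. Named were Kit, Kitl, Ufl1, at most 4 genes of a list, chosen by lowest p, all mast cell markers, and the 5 genes most like each member. The pigment genes with a promoter window were named in addition, as were Gpr143 and Slc45a2 for their low level in the controls. Krt85, a listed hair keratin, was not analysed here. Promoter sequences are from RefSeq (GRCm38.p6), exons from GENCODE M21, both of the build of the table.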

Additional observations from a re-analysis of the deposited data

How the results depend on the processing

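Kit kept a positive log2 fold change and did not pass in any of the 18 alternatives, between 0.07 (limma-voom with quality weights) and 0.64 (without control 3), with adjusted p between 0.632 and 1. Kitl did not pass in any of the 18 either, with adjusted p between 0.450 and 1. Its sign turned with upper-quartile scaling (-0.0023), without control 2 (-0.16), without control 3 (-0.07) and without cKO 3 (-0.04), and leaving out 1 library gave between -0.16 and 0.36. The number of genes called over all genes was 3, and became 25 with a filter of 1 count in all libraries together, 91 in DESeq2, 26 in limma-voom with quality weights, 12 with the replicate block, and 0 in limma-voom and on log2(FPKM + 1) and log2(FPKM + 0.1). At an unadjusted p under 0.05 these last 3 gave 891, 819 and 813 genes. Leaving out 1 library gave between 0 and 4 genes, with 502 to 1876 at an unadjusted p under 0.05. The cause was not tested.

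With the replicate block Kit was at 0.49 (SE 0.28) and Kitl at 0.09 (SE 0.22), and neither passed. For Kit against Kitl and Kit against the mast cell markers, pairing the numbers cannot move the difference of the mean log2 values. Pairing gave exact permutation p of 0.5 for Kit against Kitl (0.41) and 0.75 for Kit against the mast cell markers (0.25). The replicate numbers are shared by label only: deviations of same-numbered libraries from their group means had an r over genes of 0.22, -0.04 and -0.04 for numbers 1 to 3, and not every library was most like its own number. Leaving out each library gave 0.19 to 0.74 for Kit against Kitl and 0.05 to 0.52 for Kit against mast cell markers. The counts of positive list members without each library were chosen after seeing the data. Kit moved most without control 2 or control 3, and Kitl most without control 1 or control 2, among libraries left out.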
